A study of Bos taurus with 4 samples.

Results

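Expression of 41 genes of amino acid transport and of the folate and methionine pathways was compared between bovine blastocysts from oocytes of the same heifers at 8 and at 14 months of age. The genes comprised 23 transporters and 18 enzymes, and were taken as all probes that the platform annotation names for them. This list and the related lists below were made by symbol with earlier results of these data known. Their shares of genes that passed are therefore descriptions. Of the 41, 40 had a probe and 32 (16 transporters and 16 enzymes) could be tested, among 8398 tested genes in all. Each of 4 arrays held both ages of 1 heifer (n = 4), so that every animal was its own control. In heifers 1 and 2 the embryos from the 8-month collection were labelled with Cy5 and those from the 14-month collection with Cy3, and in heifers 3 and 4 the dyes were exchanged.

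All samples were pools of Holstein early blastocysts produced in vitro and collected 168 h after fertilization with semen of 1 bull. At both ages the donors received progesterone, had the dominant follicle aspirated 36 h before stimulation, and were given 6 doses of 30 mg FSH every 12 h, with ovum pickup 43 h after the last dose. The collection at 8 months preceded that at 14 months in every heifer, and a change with age cannot be told apart from one with the sequence or season of collection. In pooled embryos, fewer cells of a type and less RNA per cell cannot be told apart either. RNA was amplified linearly in 2 rounds of 6 h before labelling.

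Amino acids enter the embryo through families of solute carriers, some of which exchange an amino acid inside the cell for one outside, while others use a sodium or proton gradient. Serine and glycine from this supply, or from glycolysis, donate single carbon units to folate, and the folate cycle hands these units to purine and thymidylate synthesis and to the methionine cycle, the source of the methyl donor S-adenosylmethionine. The blastocyst depends on these routes for protein and nucleotide synthesis, and leucine and arginine uptake is a known input to outgrowth of the trophectoderm in the mouse.

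Across the 4 heifers, 43.3% to 51.1% of probes were above background in Cy3 and 26.9% to 41.0% in Cy5. Above background means that the median foreground of a spot lay more than 2 SD over the average negative control spot of its array and dye. The median raw intensity over probes was higher in the 8-month sample on each array. It was 237 against 152, 235 against 193, 271 against 94 and 317 against 159 in heifers 1 to 4. How far this imbalance affected the ratios was not tested. Over 17685 probes the correlation of the ratios of 8 over 14 months was r = 0.61 for heifers 1 and 2, 0.39 for heifers 3 and 4, and 0.0015 to 0.12 for pairs of opposite dye orientation. Over the 32 tested genes described here these values were 0.63, 0.28 and -0.01 to 0.16. The arrays of a pair share the dye orientation, and these correlations are descriptions over probes and genes, which are not independent replicates.

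Most of the pathway was detected. Of the 32 tested genes, 28 were above background in all 8 samples, and no spot of the 64 probes was saturated or marked as ignored in the scanner tables (0 of each). Transcripts of the cationic amino acid transporters SLC7A1 and SLC7A3, which carry arginine and lysine, were above background in 0 of 4 samples at either age. The same held for SLC6A6, a taurine transporter, SLC6A9, a glycine transporter, SLC38A1, a sodium-coupled glutamine transporter, SLC38A10, and MTRR, which reactivates methionine synthase. Methionine synthase itself, MTR, was above background in 1 of 4 samples at each age. These 8 genes gave no ratio, and a probe not well above background is not evidence that its transcript was absent. SLC38A9, a lysosomal arginine sensor, had no probe under this symbol.

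Transcripts of 4 transporters passed the test for a difference between the ages, and those of the 16 tested enzymes did not. Whether transporters and enzymes differed in the age effect was not tested. SLC7A5 and SLC7A8 were lower, and SLC43A2 and SLC6A20 higher, in embryos from the 8-month collection, by 1.39-fold to 1.64-fold. These 4 of 32 genes (12.5%) passed at an adjusted p under 0.05 (limma, Benjamini-Hochberg over all 8398 genes), against 4.50% of all genes. Of all genes 1.70% passed as higher and 2.80% as lower at 8 months, and 2 members did so in each direction. At an unadjusted p under 0.05 the count was 8 of 32 (25%, 5 higher and 3 lower), close to the 27.3% of all genes. With the adjustment made over all 17685 probes, 0 of the 40 tested probes passed, against 1.88% of all probes, the smallest adjusted p being 0.0537. At an unadjusted p under 0.05 there were 7 such probes, against 26.5% of all probes. The ratio had 1 sign in all 4 heifers in 10 of 32 genes, 5 in each direction, against 27.6% of all genes. The lower genes in this count include SLC38A7, which was tested only because 3 of its 4 samples at 14 months were above background. Its sign is therefore not independent of the filter.

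By their medians the genes lay close to 0. The median fitted log2 ratio of 8 over 14 months was -0.08 over the 32 genes, -0.15 over the transporters and -0.05 over the enzymes, and -0.0035 over all genes. The median size of the ratio, whatever its sign, was 0.19 against 0.16 over all genes. Normalized levels at 8 and at 14 months, taken over heifers without regard to pairing, did not overlap in 0 of 32 genes, against 4.76% of all genes. An exact sign-flip test on a single gene cannot go below p = 0.125 with 4 heifers, so the tests below are those of the model fitted across all genes. The standard error of that model combines how far the 2 heifers of an orientation differ with a variance shared by all genes (8.41 degrees of freedom in all, 2 of them from the gene itself), and has no share for how far the orientations differ. The 4 calls rest on all 4 arrays: leaving out heifer 1, 2 or 3 left 0 member genes past the threshold, and leaving out heifer 4 left 2, SLC7A5 and SLC1A1. Of all genes, the same steps left 0, 0, 2 and 339 calls in place of 378. Median centring of each array in place of the intensity-dependent loess moved the median of all genes to -0.18 and gave 11 member calls, all of them lower, of which 2 (SLC7A5 and SLC7A8) were among the 4. Under it 39 genes of the platform passed as higher and 2039 as lower, against 143 and 235 under loess.

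**Figure D1:**
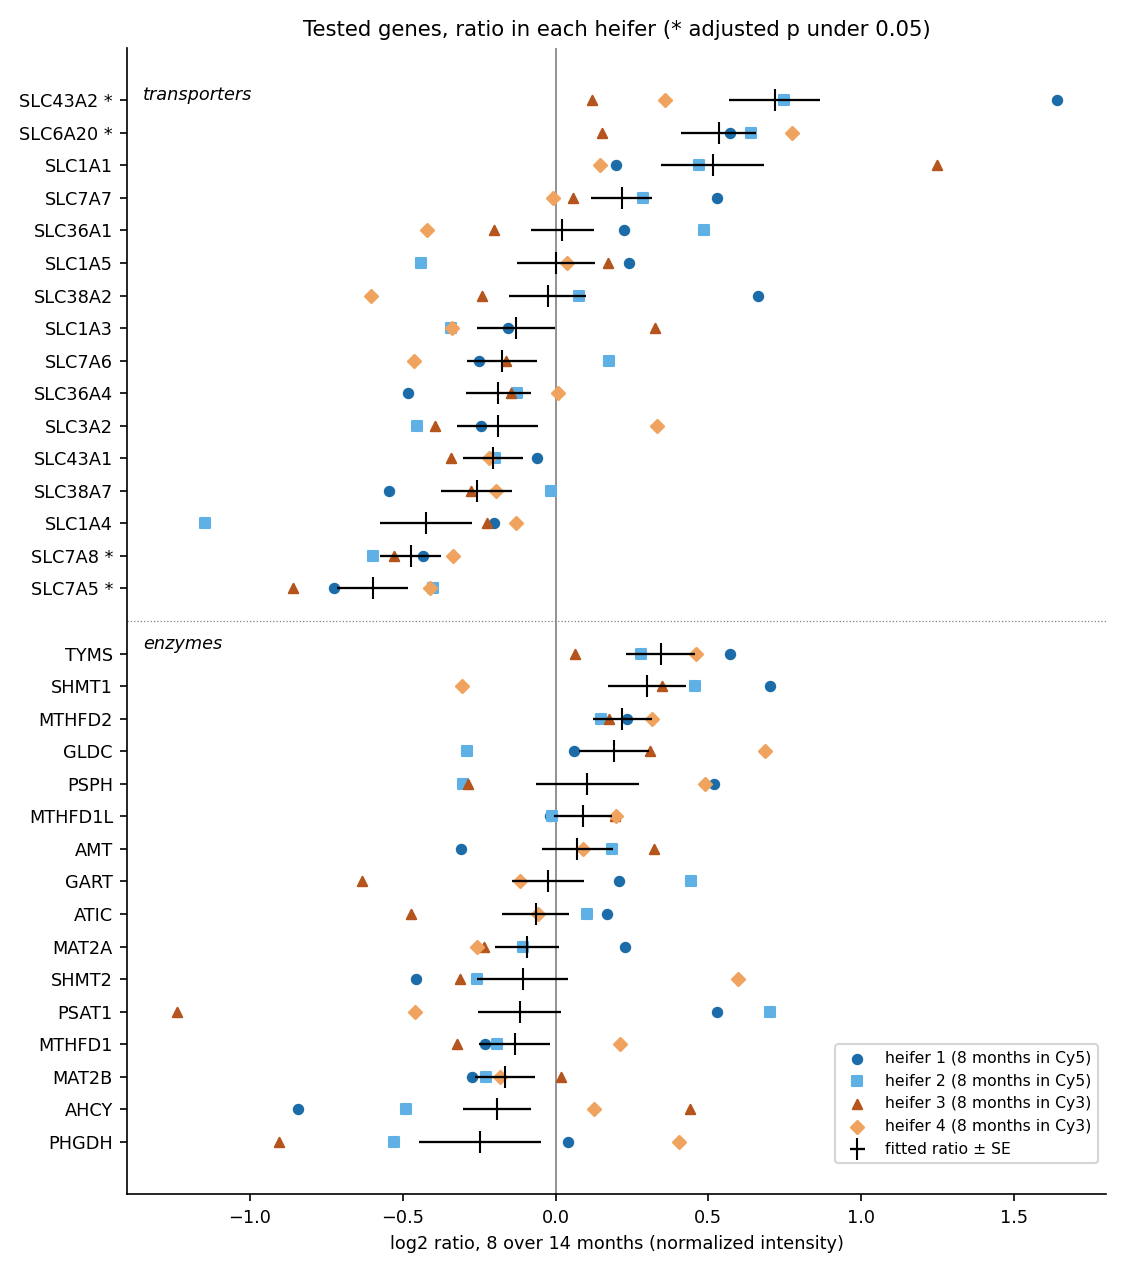
Log2 ratio of 8 over 14 months for the 32 tested genes, with the 4 heifers as separate symbols and the fitted ratio with its standard error as a black cross. SLC7A5 and SLC7A8 lie to the left of 0 in all 4 heifers and SLC43A2 and SLC6A20 to the right, while PSAT1 and AHCY are split by dye orientation.

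Among the heterodimeric transporters, both light chains that exchange neutral amino acids were lower at 8 months. These carriers pair a catalytic light chain with a common heavy chain, SLC3A2, which brings it to the cell surface. SLC7A5 is the light chain for large neutral amino acids such as leucine. Its normalized log2 intensity in heifers 1 to 4 was 13.66, 14.17, 13.78 and 14.42 at 8 months, and 14.39, 14.57, 14.64 and 14.82 at 14 months. Each heifer was lower at 8 months, and the age groups overlapped only in that heifer 4 at 8 months lay just above heifer 1 at 14 months. The log2 ratios were -0.73, -0.40, -0.86 and -0.41, with a fitted ratio of -0.60 ± 0.12 (SE, n = 4), which is 1.51-fold lower (limma, adjusted p = 0.0379). Its adjusted p was 0.240, 0.117 and 0.103 without heifer 1, 2 or 3 and 0.0330 without heifer 4, 0.107 without the dye term and 0.330 without moderation of the variance.

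SLC7A8, the light chain with a broader range of neutral substrates, was a dimmer probe with the most even ratios of the 4. The probe was above background in all 8 samples, with raw intensities of 259 to 471, where array medians by dye were 94 to 317. In heifers 1 to 4 raw values were 269, 274, 369 and 471 at 8 months and 277, 364, 259 and 332 at 14 months. Heifers 3 and 4 were thus lower at 8 months only after normalization. How far the dimness of the probe affected the ratios of SLC7A8 was not tested. At 8 months its log2 levels were 7.65, 7.71, 7.90 and 8.32, and at 14 months 8.09, 8.30, 8.42 and 8.65. Every heifer was again lower at 8 months, and the overlap of the age groups came from heifer 4, the highest at both ages. The ratios of -0.43, -0.60, -0.53 and -0.34 gave a fit of -0.47 ± 0.10 (SE, n = 4; 1.39-fold lower, limma adjusted p = 0.0410). The call ended without any 1 of heifers 1 to 4 (adjusted p = 0.227, 0.170, 0.121 and 0.0539), without background correction (0.0582), without the dye term (0.115) and without moderation (0.292).

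The heavy chain and the other light chains did not pass. SLC3A2 had log2 levels of 10.19, 10.50, 10.19 and 10.56 at 8 months and 10.43, 10.95, 10.59 and 10.23 at 14 months. Its ratio was below 0 in heifers 1 to 3 (-0.25, -0.45 and -0.39) and above 0 in heifer 4 (0.33), and the fit of -0.19 ± 0.13 had a 95% interval of -0.49 to 0.11 (adjusted p = 0.379). SLC7A6 and SLC7A7, which exchange cationic for neutral amino acids, had fitted ratios of -0.17 ± 0.11 and 0.22 ± 0.10 (adjusted p = 0.350 and 0.205). Whether SLC7A5 differed from its heavy chain in the age effect was not tested.

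**Figure D2:**
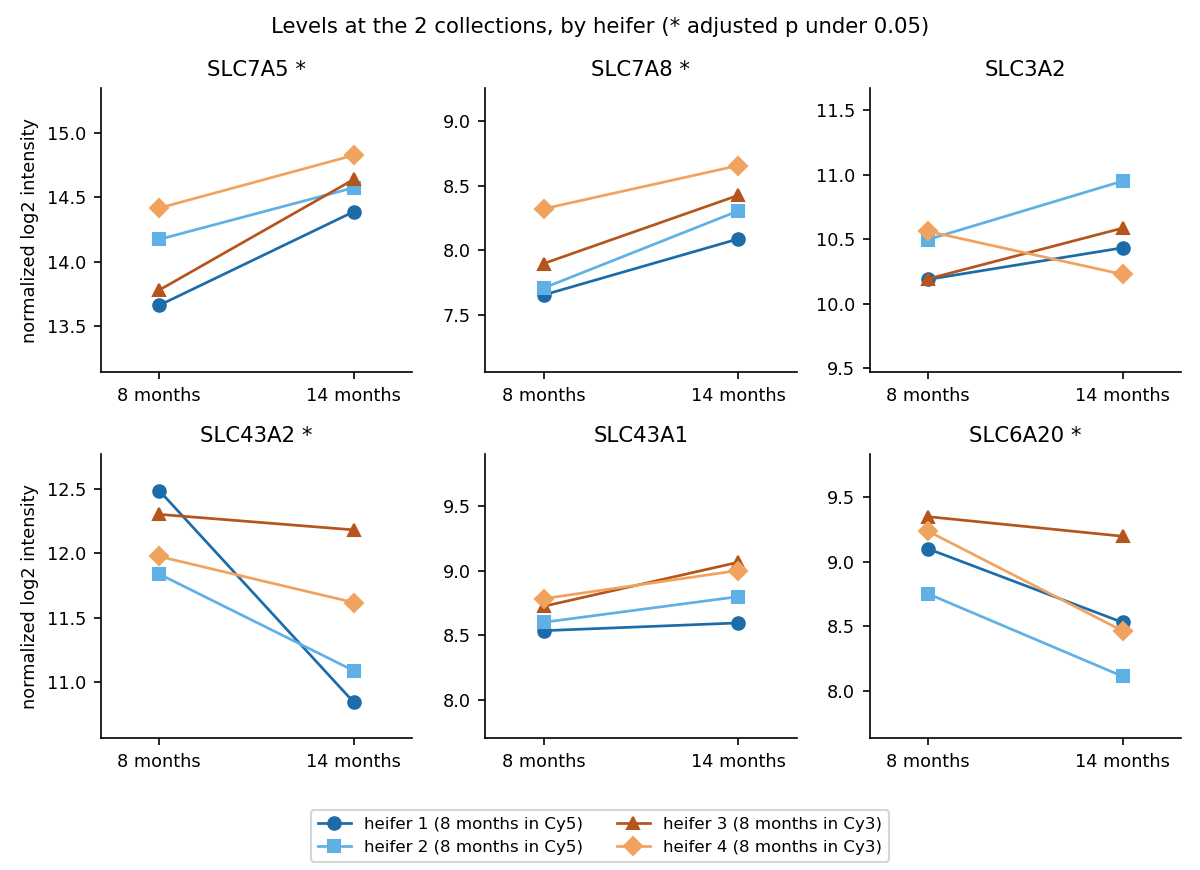
Normalized log2 intensity of 6 transporters at the 8-month and 14-month collections, with 1 line per heifer and an equal span of the vertical axis in each panel. All 4 lines rise from 8 to 14 months in SLC7A5, SLC7A8 and SLC43A1 and fall in SLC43A2 and SLC6A20, and in SLC3A2 heifer 4 runs against the others.

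The facilitative large neutral transporters SLC43A1 and SLC43A2, which let leucine and related amino acids pass down their gradient, lay on opposite sides of 0. SLC43A2 had log2 levels of 12.49, 11.84, 12.30 and 11.98 at 8 months and 10.85, 11.09, 12.18 and 11.62 at 14 months. All 4 heifers were higher at 8 months, and the groups overlapped through the high 14-month level of heifer 3. Its log2 ratios were 1.64, 0.75, 0.12 and 0.36, and the fitted ratio was 0.72 ± 0.15 (SE, n = 4; 1.64-fold higher, limma adjusted p = 0.0387). The size differed by dye orientation, with a mean of 1.19 in heifers 1 and 2 and 0.24 in heifers 3 and 4. That gap has no share in the SE, and the SD of the ratio over the 4 heifers was 0.67. The adjusted p was 0.234, 0.117, 0.0765 and 0.0692 without heifer 1, 2, 3 or 4, 0.0977 under median centring (where the ratio was 0.37), 0.0514 with the mean of all detected probes of each gene, 0.155 without the dye term and 0.355 without moderation.

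SLC43A1 was lower at 8 months in each heifer by a small amount that did not pass. The log2 levels were 8.54, 8.60, 8.72 and 8.78 at 8 months and 8.60, 8.80, 9.07 and 9.002 at 14 months, so the groups overlapped. Its ratios were -0.06, -0.20, -0.34 and -0.22, with a fit of -0.20 ± 0.10 and a 95% interval of -0.43 to 0.02 (limma, adjusted p = 0.217).

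Of the SLC6 family, SLC6A20 was the member that could be tested, and it was higher at 8 months. It carries proline and other imino acids into the cell with sodium and chloride. Levels were 9.10, 8.75, 9.35 and 9.24 at 8 months and 8.53, 8.11, 9.20 and 8.46 at 14 months. Heifer 3 was high at both ages, and its 14-month level is what made the groups overlap. Ratios of 0.57, 0.64, 0.15 and 0.77 gave a fit of 0.53 ± 0.12 (SE, n = 4; 1.45-fold higher, limma adjusted p = 0.0490), the weakest of the 4 calls. It ended under 11 of 15 alternatives, with adjusted p = 0.0526 after plain background subtraction, 0.0587 without background correction, 0.125 under median centring, 0.0556 with mean pixel intensities, 0.0585 with the mean of a gene's probes, 0.118 without the dye term, 0.341 without moderation, and 0.240, 0.173, 0.0572 and 0.103 without heifer 1, 2, 3 or 4.

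The SLC1 family holds sodium-coupled glutamate carriers (SLC1A1 and SLC1A3) and exchangers of small neutral amino acids and glutamine (SLC1A4 and SLC1A5), and 0 of these 4 genes passed. SLC1A1 had log2 levels of 9.54, 9.72, 9.72 and 10.33 at 8 months and 9.35, 9.25, 8.47 and 10.19 at 14 months. Each heifer was higher at 8 months, heifer 3 by far the most, with ratios of 0.20, 0.47, 1.25 and 0.14. The fit was 0.51 ± 0.17 (adjusted p = 0.103), 0.24 without heifer 3, and 0.79 without heifer 4, where it passed (limma, adjusted p = 0.0257).

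For SLC1A4 the levels were 12.61, 12.24, 12.05 and 12.31 at 8 months and 12.81, 13.38, 12.27 and 12.44 at 14 months. Its 14-month level in heifer 2 stood above all others. The ratios were -0.20, -1.15, -0.22 and -0.13, and the fit of -0.43 ± 0.15 (limma, adjusted p = 0.121) was -0.19 without heifer 2. A second probe of the gene had ratios of 0.04, -0.82, 0.89 and 0.04 and a fit of 0.04 ± 0.19, so the probes shared the low value of heifer 2 and differed in heifer 3. SLC1A3 and SLC1A5 had fits of -0.13 ± 0.13 and 0.0016 ± 0.13, and the 95% interval of SLC1A5 reached from -0.29 to 0.29. A second, dimmer probe of SLC1A3 had a fit of 0.03 ± 0.10.

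The proton-coupled and sodium-coupled families contributed 4 tested genes, 0 of which passed. SLC38A2, a sodium-coupled carrier of alanine and glutamine, was above background in all 8 samples with ratios of 0.66, 0.08, -0.24 and -0.60 in heifers 1 to 4 and a fit of -0.03 ± 0.13. SLC38A7, which moves glutamine out of lysosomes, exceeded background in 3 of 4 of the 14-month pools and 0 of 4 of the 8-month pools. Its log2 ratios were -0.54, -0.02, -0.28 and -0.20. The fit of -0.26 ± 0.12 had a 95% interval of -0.52 to 0.0061 and did not pass (limma, adjusted p = 0.192). With the 8-month pools not well above background, no fold is given. SLC36A1, a proton-coupled carrier of small amino acids, and SLC36A4, a carrier of proline and tryptophan, had fits of 0.02 ± 0.10 and -0.19 ± 0.11 (adjusted p = 0.910 and 0.285) and were close to background, in that 5 and 7 of 8 samples exceeded it.

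Serine synthesis from glycolysis runs through PHGDH, PSAT1 and PSPH in that order, and 0 of the 3 passed. PSAT1, the aminotransferase step, had log2 levels of 12.37, 12.71, 11.03 and 11.92 at 8 months and 11.84, 12.01, 12.26 and 12.38 at 14 months. Heifers 1 and 2 were higher at 8 months and heifers 3 and 4 lower, with ratios of 0.53, 0.70, -1.24 and -0.46. The fit of -0.12 ± 0.14 (adjusted p = 0.605) thus averages a mean of 0.61 in the first pair and -0.85 in the other, and the SD over the 4 heifers was 0.91. PHGDH, the first enzyme, had ratios of 0.04, -0.53, -0.90 and 0.40 (fit -0.25 ± 0.20), and PSPH, the phosphatase, ratios of 0.52, -0.30, -0.29 and 0.49 (fit 0.10 ± 0.17). The 3 enzymes thus did not share an order of the heifers.

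Of the 7 enzymes that interconvert serine, glycine and folate-bound carbon units, 0 passed. SHMT1, the cytosolic serine hydroxymethyltransferase, had levels of 10.94, 10.82, 11.63 and 11.33 at 8 months and 10.24, 10.36, 11.28 and 11.63 at 14 months. Heifers 1 to 3 were higher at 8 months and heifer 4 lower, with ratios of 0.70, 0.46, 0.35 and -0.31 and a fit of 0.30 ± 0.13 (adjusted p = 0.176). Its mitochondrial counterpart SHMT2 ran the other way in each heifer, at -0.45, -0.26, -0.31 and 0.60, with a fit of -0.11 ± 0.15 (adjusted p = 0.671).

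MTHFD2, the mitochondrial folate dehydrogenase and cyclohydrolase, had the smallest SD of the ratio over heifers of the genes with full values here, although its level differed widely between them. Its levels were 9.99, 8.44, 8.38 and 8.27 at 8 months and 9.76, 8.29, 8.20 and 7.96 at 14 months. All heifers were slightly higher at 8 months, with ratios of 0.23, 0.15, 0.18 and 0.32 (SD 0.075), and the fit of 0.22 ± 0.10 had a 95% interval of -0.0042 to 0.44 (limma, adjusted p = 0.190). The formate-releasing MTHFD1L and the cytosolic trifunctional MTHFD1 had fits of 0.09 ± 0.10 and -0.13 ± 0.12. GLDC and AMT, subunits of the glycine cleavage system, had fits of 0.19 ± 0.11 and 0.07 ± 0.12. For GLDC the ratio ranged from -0.29 in heifer 2 to 0.69 in heifer 4.

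In the methionine cycle 0 of 3 tested enzymes passed. AHCY, which hydrolyses S-adenosylhomocysteine, had levels of 12.00, 12.37, 12.44 and 13.20 at 8 months and 12.84, 12.86, 12.00 and 13.07 at 14 months. Its ratios of -0.84, -0.49, 0.44 and 0.12 were split by dye orientation, in the direction opposite to PSAT1, and the fit was -0.19 ± 0.11 (adjusted p = 0.298). MAT2A, which makes S-adenosylmethionine, and MAT2B, its regulatory subunit, had fits of -0.09 ± 0.10 and -0.17 ± 0.10. MAT2A had 4 tested probes, of which the brightest read -0.09 and the others 0.18, 0.18 and 0.23. The second tested probe of MAT2B had a fit of 0.06 ± 0.10.

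The folate-dependent steps of nucleotide synthesis held TYMS, which makes thymidylate, and GART and ATIC, which insert formyl groups into purines, and 0 of 3 passed. TYMS had levels of 12.11, 11.46, 11.02 and 11.73 at 8 months and 11.54, 11.18, 10.95 and 11.27 at 14 months. Every heifer was higher at 8 months, by 0.57, 0.28, 0.06 and 0.46, and the fit was 0.34 ± 0.11 (adjusted p = 0.103). Its other tested probe, dimmer and above background in 5 of 8 samples, had a fit of -0.11 ± 0.10. GART and ATIC had fits of -0.03 ± 0.12 and -0.07 ± 0.11, with both heifers of a dye orientation on 1 side of 0 and both of the other orientation on the opposite side.

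Some ratios followed the dye orientation. The pair means of heifers 1 and 2 and of heifers 3 and 4 had opposite signs in 3 of 16 transporters and 9 of 16 enzymes, and in 44.2% of all genes, and whether transporters and enzymes differ in this was not tested. In 7 of 32 genes both heifers of one orientation opposed both of the other (AHCY, ATIC, GART, MTHFD1L, PSAT1, SLC36A1 and SLC38A2), or 21.9%, against 18.3% of all genes. For MTHFD1L the values of heifers 1 and 2 were as small as -0.019 and -0.012. A second MTHFD1L probe, with ratios of 0.20, 0.08, -0.25 and 0.02, was not split in this way. The SD of the ratio over the 4 heifers had a median of 0.30 over the 32 genes and 0.25 over all genes. In the 4 genes that passed, both pair means had the sign of the fit. Why a gene's ratio followed the dye orientation was not tested, and the pair of heifers cannot be told apart from the orientation.

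**Figure D3:**
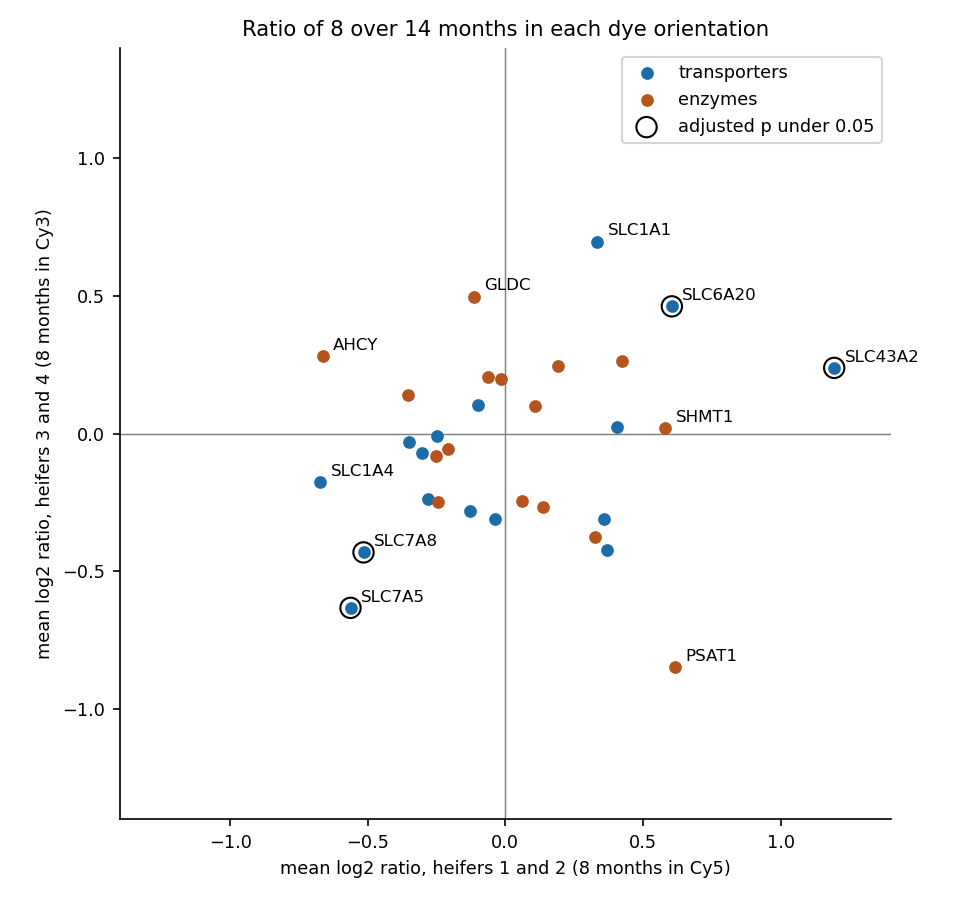
Mean log2 ratio of 8 over 14 months in heifers 1 and 2 (horizontal) against heifers 3 and 4 (vertical) for the 32 tested genes. The 4 genes that passed (circled) lie in the lower left and upper right quadrants, where both orientations have the same sign, and PSAT1, at 0.61 and -0.85, lies farthest into a quadrant of opposite signs.

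Levels also differed between heifers. The range over heifers of the mean log2 level of both ages had a median of 0.70 over the 32 genes and 0.47 over all genes, and it was above 1 in 6 of 32 genes, against 10.0% of all genes. MTHFD2 had the widest range, 1.76, wider than that of 99.0% of all genes. Its mean level was 9.87 in heifer 1 and 8.37, 8.29 and 8.12 in heifers 2 to 4, a gap present at both ages and so in both dyes. Both dyes were read from the same spot of an array. At 14 months this probe of MTHFD2 exceeded background in 3 of 4 samples. A second probe of the gene did so in 0 of 4 samples at each age, so the range rests on 1 probe. PHGDH was likewise highest in heifer 1, at 11.79 against 10.80, 10.44 and 10.68, a range of 1.35. SLC1A1 and GART were highest in heifer 4, with ranges of 1.16 and 1.13, GLDC was lowest in heifer 1 (1.15) and PSPH lowest in heifer 3 (1.12). SHMT2 had a range of 0.22, the narrowest of the 32. Each heifer was measured on 1 array, so heifer and array cannot be told apart here, and no test was made.

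**Figure D4:**
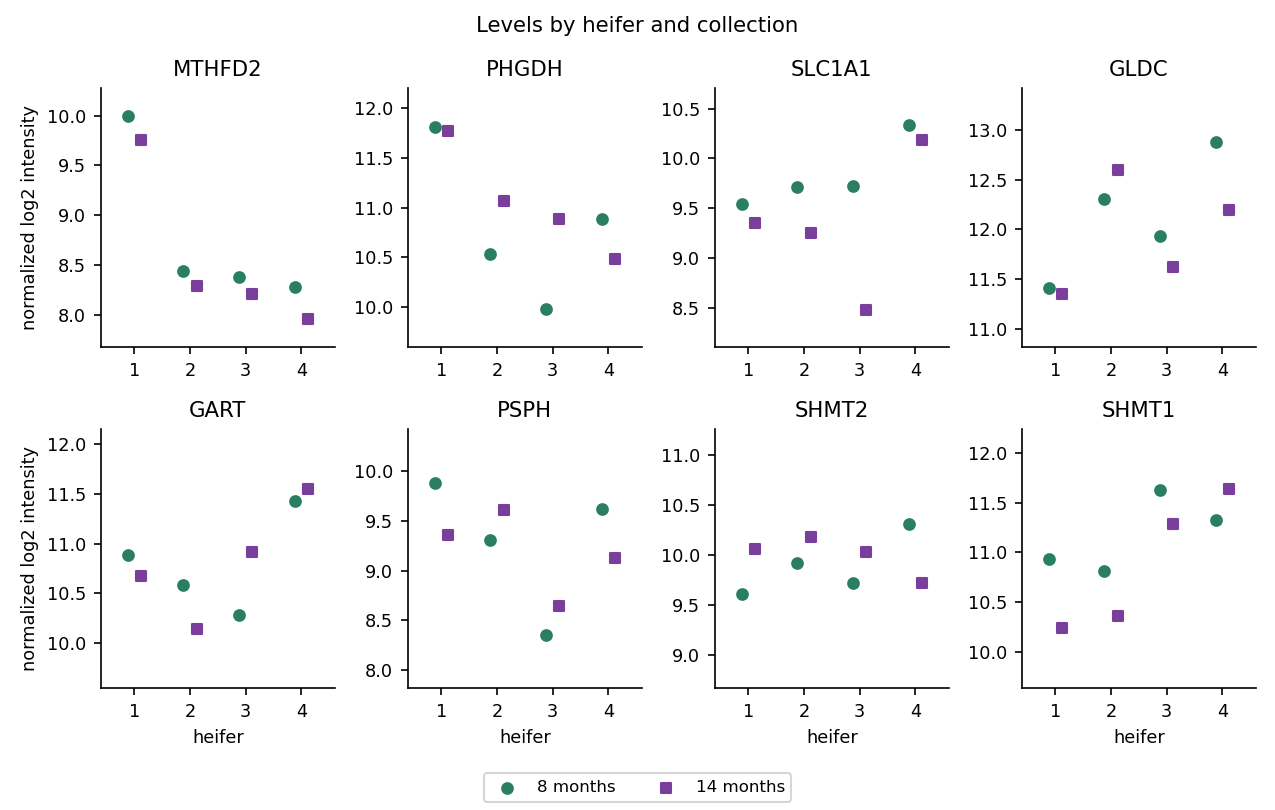
Normalized log2 intensity of 8 genes by heifer, with the 8-month and 14-month collections as separate symbols and an equal span of the vertical axis in each panel. Both MTHFD2 samples of heifer 1 lie at 9.76 or above while those of the other heifers lie between 7.96 and 8.44, and SHMT2 varied little between heifers.

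Other genes of these pathways, 144 listed by function of which 87 were tested, included 7 that passed (8.05%, against 4.50% of all genes), 4 higher and 3 lower at 8 months. Among enzymes of other amino acids and polyamines, 3 of 20 passed and all were higher at 8 months. GPT2, the mitochondrial alanine transaminase, had ratios of 0.87, 0.66, 0.34 and 0.77 (fit 0.66 ± 0.11, adjusted p = 0.0351). GLUL, glutamine synthetase, had ratios of 0.58, 0.88, 0.40 and 0.49 (0.59 ± 0.10, adjusted p = 0.0351). PRODH, which begins the breakdown of proline, had 0.89, 0.32, 0.38 and 1.04 (0.66 ± 0.14, adjusted p = 0.0442). In each of the 3 genes all heifers were higher at 8 months.

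In purine and thymidylate synthesis 1 of 17 genes passed, and it was higher. This was DTYMK, the kinase that acts on the product of TYMS, with even ratios of 0.80, 0.75, 0.53 and 0.51 (fit 0.65 ± 0.10, limma adjusted p = 0.0313) and 3 of 3 tested probes above 0. PRPS2, a supplier of activated ribose, came next at 0.37 ± 0.10 (adjusted p = 0.0695). Of the other folate, methionine and methyl group genes, 2 of 26 passed and both were lower at 8 months. AHCYL1, a relative of AHCY, had a fit of -0.63 ± 0.13 (adjusted p = 0.0387), with 1 of its 3 tested probes below 0. CTH, which makes cysteine from cystathionine, had ratios of -0.38, 0.10, -0.83 and -0.97 and a fit of -0.52 ± 0.11 (adjusted p = 0.0454), so heifer 2 did not share its direction.

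Among genes of the amino acid response 1 of 17 passed. EIF2AK4, the kinase that senses uncharged transfer RNA, was lower at 8 months in all heifers (-0.59, -0.62, -0.38 and -0.22), with a fit of -0.45 ± 0.10 (limma, adjusted p = 0.0438). ATF4, the transcription factor downstream of it, had ratios of -0.28, -1.12, -0.40 and -0.39 and a fit of -0.55 ± 0.14 that did not pass (adjusted p = 0.0598). Of the other amino acid transporters 0 of 7 tested passed, with 2 at an unadjusted p under 0.05, SLC38A11 at 0.25 ± 0.10 and SLC43A3 at 0.33 ± 0.14. Without heifer 1, 2 or 3 the 87 genes held 0 calls, and without heifer 4 they held 4.

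**Figure D5:**
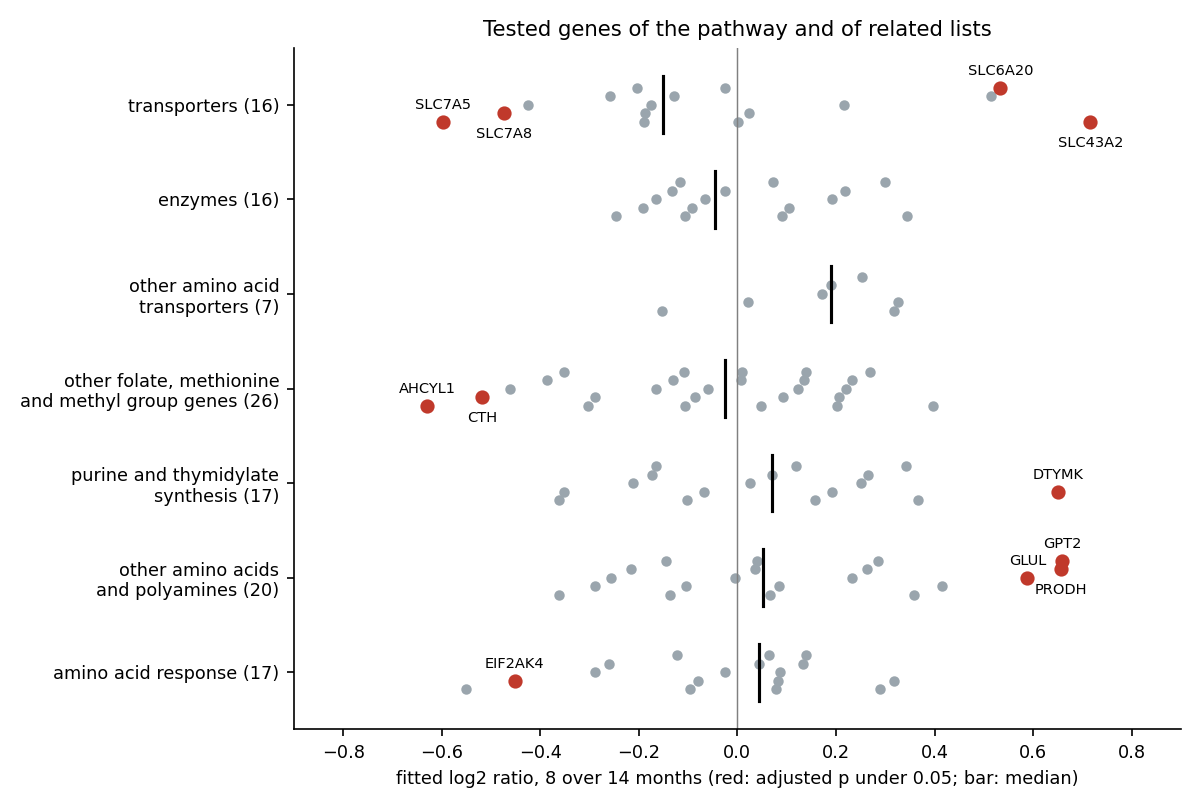
Fitted log2 ratio of 8 over 14 months for the tested genes of each list, 1 point per gene, with the number tested in brackets, the list median as a bar and genes that passed in red. The 4 member calls all lie among the transporters, 2 on each side of 0, and the 3 calls among other amino acids and polyamines all lie between 0.59 and 0.66.

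The samples expressed the markers of an embryo with both early lineages. Of 12 trophectoderm markers 11 were tested and 9 were above background in all 8 samples, and the corresponding counts for the inner cell mass were 6 of 7 and 5. KRT8 reached the scanner's limit in 2 of 4 samples at 14 months and in 0 at 8 months, so its fit of -0.30 and any sum with it are compressed. The summed linear level of the other 10 trophectoderm markers was 81703 to 123709 per sample at 8 months and 69028 to 102026 at 14 months (131158 to 176814 and 130918 to 164565 with KRT8), and that of the inner cell mass markers 11257 to 14498 and 9306 to 13472. The brightest of these 10 trophectoderm markers were KRT18, TFAP2C, KRT19 and GATA2, at mean log2 intensities of 13.30 to 15.19 against 7.46 to 10.94. In the inner cell mass list POU5F1 and NANOG stood at 13.00 and 11.29, against 8.25 to 8.72 for the others. Both sums thus mainly follow these brightest genes. GATA2 and TEAD4, trophectoderm transcription factors, passed as higher at 8 months (0.61 ± 0.10 and 0.56 ± 0.10, limma adjusted p = 0.0313 and 0.0351). For GATA2 the mean ratio was 0.93 in heifers 1 and 2 and 0.28 in heifers 3 and 4. For TEAD4 these means were 0.81 and 0.32, and such gaps have no share in the SE. The markers of the inner cell mass gave 0 calls of 6, with 2 at an unadjusted p under 0.05. CDX2, GATA3 and KRT18 had fits of 0.16, -0.08 and 0.17, and POU5F1, NANOG and SOX2 of 0.20, 0.09 and 0.05. Of these, KRT18, NANOG and POU5F1 were split by dye orientation and CDX2, GATA3 and SOX2 were not. Ratios in heifers 1 to 4 were 0.57, 0.79, -0.20 and -0.47 for KRT18 and 0.27, 0.99, -0.13 and -0.79 for NANOG. Those of POU5F1 ran the other way, at -0.18, -0.12, 0.79 and 0.30, so each of these fits averages opposite signs. The CDX2 probe was dim, and 3 of the 8-month pools and 2 of the 14-month pools exceeded background. The part of lineage proportions in the transporter values was not tested.

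Cumulus and granulosa markers were tested for 6 of 14 genes, with summed levels of 8228 to 15858 at 8 months and 7154 to 10841 at 14 months, and 0 of 6 passed. SERPINE2 held most of each sum, at a mean log2 intensity of 12.87 against 7.62 to 9.68 for the other genes. The sums thus mainly follow SERPINE2, with a fit of 0.25 ± 0.11, while 4 of the 6 fits were below 0. Of these 6 genes, 5 were above background in all 8 samples (CYP11A1, HSD3B1, INHBA, SERPINE2 and STAR), and FSHR, AMH, FOXL2, FST, LHCGR and TNFAIP6 were above it in 0 samples. HSD3B1, a steroid-making enzyme, had a fit of -0.70 ± 0.23 (adjusted p = 0.101). Oocyte markers were tested for 3 of 12 genes, none of them (0) above background in all 8 samples, with GDF9, BMP15, ZAR1 and NLRP5 above it in 0 samples. The corresponding counts were 3 of 6 for sperm and 3 of 6 for blood cells, and 0 and 2 of these were above background in all 8 samples. The 2 were HBA and PTPRC, while HBB and LYZ were above background in 0 samples. Summed levels were 649 to 750 and 644 to 668 for the oocyte markers, 437 to 574 and 557 to 633 for sperm, and 1369 to 2868 and 1140 to 2432 for blood cells, at 8 and 14 months.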

How the data were processed

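The scanner tables deposited by the authors hold median and mean foreground and background intensity per spot for both dyes, not normalized, per the file headers. Background correction and scaling behind the authors' deposited log2 ratios are not given in the sources used here, and these ratios served as an alternative. Set against the scanner values over 11156 bright probes, they read 8 over 14 months (r = 0.998, 0.998, 0.966 and 0.996), with column medians of 0.0036, 0.00028, -0.0014 and 0.0094. File names put the 4 arrays on 1 slide.

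Median intensities were corrected with normexp (offset 50) and normalized within arrays by loess, with control spots at weight 0 (limma 3.58.1, R 4.3.3). Probes above background in at least 3 of 4 samples of at least 1 age were tested, and each gene was represented by its brightest tested probe. The log2 ratio was fitted with lmFit and eBayes, with age and a dye term, which leaves 2 residual degrees of freedom. Tests were two-sided, with Benjamini-Hochberg adjustment over all genes or probes and a threshold of 0.05. Levels are channel intensities after loess and Aquantile scaling and are compared within a probe only, except that marker lists are summed over probes. Platform symbols were updated through RefSeq synonyms (ARS-UCD2.0, names only). All 64 member probes carried current symbols. The sources used here name no genome build for the array, and no positions are given.

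Members and lists were chosen with earlier results of these data known. Every member with a probe is named, with values per heifer where it passed, had an unadjusted p under 0.05 or had 1 sign in all 4 heifers, and, chosen after their values were seen, for some members split between heifers. Of related lists the genes that passed and the 2 with the smallest p are named. The fit was run on simulated ratios drawn from the model itself, with independent normal noise and the fitted dye terms. Such a run checks the code and does not bear on the calls made here. Alternatives covered background, normalization, pixel summary, filter, model, probe choice and omission of each heifer. Leaving out spots marked as ignored was added after seeing the data. Collections at 11 months were not analysed here. Precision is limited by having 4 arrays.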

Additional observations from a re-analysis of the deposited data

Results flagged for a closer look

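In SLC1A4, an exchanger of neutral amino acids, heifer 2 stood apart from the others, with a log2 ratio of 8 over 14 months of -1.15 against -0.22 to -0.13. It was the 1 member gene of 32 in which a heifer's gap to its nearest neighbour, as a share of the whole range (0.908), was above Dixon's critical value for 4 samples at the 95% level. Chance alone marks about 1 in 20 such groups.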

How the results depend on the processing

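The 4 member calls were also made from the authors' deposited ratios, without a filter on dim probes, with probes above background in all 8 samples only and with ignored spots left out, and each of these settings shared all 4 genes. Without the dye term, and without moderation, there were 0 calls among members, related genes and all genes, with 7 and 5 members at an unadjusted p under 0.05. Without background correction 2 members passed. With the mean of a gene's probes 2 members, 3 related genes and 207 genes in all passed, and with mean pixel intensities 4 related genes. Without a filter 4 member probes passed. Median centring gave 11 member genes, 8 member probes, 23 related genes and 2078 genes in all, with a member median of -0.33, and the cause was not tested. Leaving out 1 heifer at a time gave 0 to 2 member genes, 0 to 3 member probes, 0 to 4 related genes and 0 to 339 genes in all, with 1 residual degree of freedom fewer and medians of -0.09 to 0.01 over the members.

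Signs turned in genes that did not pass, and the cause was not tested. Under median centring AMT read -0.21, GLDC -0.15, MTHFD1L -0.24, PSPH -0.10, SHMT1 -0.023, SLC1A5 -0.32 and SLC7A7 -0.10. With mean pixels SLC36A1 read -0.069 and SLC38A2 0.080, with the mean of probes MAT2A 0.12, and SLC1A5 read -0.0084 after plain subtraction and -0.0050 without correction. Over the omission of each heifer the ratio ran from -0.15 to 0.10 for GART, -0.10 to 0.31 for PSPH, -0.17 to 0.17 for SLC1A5, -0.052 to 0.20 for AMT, -0.043 to 0.088 for SLC36A1, -0.17 to 0.12 for SLC38A2, -0.17 to 0.039 for ATIC, -0.27 to 0.00077 for MTHFD1, -0.57 to 0.079 for PHGDH, -0.31 to 0.077 for PSAT1, -0.33 to 0.12 for SHMT2 and -0.29 to 0.038 for SLC1A3. The 4 genes that passed kept their sign under all 15 alternatives. The fit is itself paired, since each ratio sets both ages of 1 heifer against each other, and no further block was fitted.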
